A study of Mus musculus with 16 samples.

Results

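The calnexin and glucosyltransferase cycle, by which the endoplasmic reticulum (ER) folds glycoproteins, was followed through 10 genes. They were chosen by name, with earlier results of these data known: Uggt1 and Uggt2, Canx, Calr, Ganab, Prkcsh, Mogs, Edem1, Man1b1 and Lman1. All 10 were found, with 23 probe sets among 45037, and each was represented by its leading probe set, the one with the highest mean among those that carry its symbol alone. Leading probe sets were available for 18193 genes. CT26 cells, a mouse colon carcinoma line, had been stably transfected with one of 4 constructs: shSep15, shTR1, both hairpins together (shTR1/shSep15), or the empty pU6-m3 vector (control). All lines, control included, had been selected with hygromycin B. Each construct was measured on 4 Affymetrix mouse genome arrays from different mRNA samples, 16 arrays in all. The sources used here do not say whether the 4 samples of a line came from separate cultures or clones, and the p-values cover only the spread among the samples measured. Values are log2 signals, on which a difference of 1 is a doubling.

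The cycle works on glycoproteins as they fold. An oligosaccharide with terminal glucoses is attached to the new protein, and glucosidase I (Mogs) and then glucosidase II (catalytic subunit Ganab, regulatory subunit Prkcsh) cut the glucoses back. A glycan left with a single glucose is held by calnexin (Canx), which sits in the membrane, or calreticulin (Calr), which is soluble, together with a disulfide isomerase. After glucosidase II has removed that last glucose, UDP-glucose:glycoprotein glucosyltransferase (Uggt1, with its homolog Uggt2) inspects the protein and glucosylates it again if it is not folded. Man1b1 and Edem1 trim mannoses and send proteins that fail to fold towards degradation, and Lman1 carries folded glycoproteins to the Golgi. Sep15, the product of Selenof, binds UGGT, and the cycle is examined here for that reason. TR1 is the cytosolic thioredoxin reductase, encoded by Txnrd1.

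The hairpins and promoter sequences that bear on these measurements are shown here. The labels give a 19-nt target for Sep15 (Selenof, chromosome 3) and a 22-nt target for TR1 (Txnrd1, chromosome 10), which define the lines.
Sep15 hairpin: acagaagagttccatttaa
TR1 hairpin: atcgctctgacaagcttattag
Promoters are shown for Ganab, the member with the largest difference between lines, and for Canx and Calr, the 2 members that hold an ER stress response element, the binding motif of ATF6 with NF-Y. The element was searched on both strands as CCAAT, 9 bases of any kind and CCACG, over 250 bases before and 50 after the start (RefSeq, GRCm38.p6). It was present in 0.119% of 32851 promoters and in 2 of the 9 members with a promoter entry. Capitals mark CCAAT and CCACG, or their reverse complements. In Calr and Canx only the copies that form the element are in capitals.
Ganab, chr19:8897807-8898106, + strand: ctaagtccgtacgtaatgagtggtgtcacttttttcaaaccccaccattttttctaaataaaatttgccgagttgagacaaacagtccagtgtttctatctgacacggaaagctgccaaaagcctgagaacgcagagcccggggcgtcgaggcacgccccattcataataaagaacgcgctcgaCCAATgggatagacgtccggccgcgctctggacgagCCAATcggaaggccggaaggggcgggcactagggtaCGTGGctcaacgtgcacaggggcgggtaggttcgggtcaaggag
Calr, chr8:84846882-84847181, - strand: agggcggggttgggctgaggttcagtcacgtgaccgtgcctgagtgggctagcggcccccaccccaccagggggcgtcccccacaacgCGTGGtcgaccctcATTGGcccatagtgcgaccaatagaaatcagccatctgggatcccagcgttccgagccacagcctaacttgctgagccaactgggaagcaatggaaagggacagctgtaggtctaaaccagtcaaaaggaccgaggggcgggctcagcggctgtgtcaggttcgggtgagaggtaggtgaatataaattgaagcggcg
Canx, chr11:50325624-50325923, - strand: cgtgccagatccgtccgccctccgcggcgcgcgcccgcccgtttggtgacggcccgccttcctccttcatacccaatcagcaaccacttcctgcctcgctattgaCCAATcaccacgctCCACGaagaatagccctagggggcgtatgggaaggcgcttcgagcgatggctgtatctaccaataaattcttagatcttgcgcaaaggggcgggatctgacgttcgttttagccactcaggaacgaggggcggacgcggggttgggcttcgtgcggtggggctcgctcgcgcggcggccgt
Ganab holds 2 copies of CCAAT and 1 of CCACG, but not at the spacing of the element. CCAAT alone was found in 37.4% of all promoters and CCACG alone in 32.8%, and each was found in 5 of the 9 members. These are matches of letters in a window and were not tested for binding.

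The targeted genes and the quality of the arrays set the frame for the members. Selenof ran from 8.02 to 8.29 in shSep15 cells, 11.57 to 12.36 in shTR1 cells and 7.34 to 7.86 in shTR1/shSep15 cells, against 10.78 to 11.57 in control cells. Txnrd1 ran from 7.18 to 7.91 in shTR1/shSep15 cells and from 9.45 to 10.39 in control cells. Its shTR1 signals were 7.84, 10.57, 7.89 and 9.71, and the knockdown was thus not seen at this probe set on the arrays of replicates 2 and 4. Control replicate 2 stood apart from the other arrays. Its 3' minus 5' difference for actin, a measure of RNA integrity, was 0.79, against 0.41 to 0.44 in the other control arrays. The same measure for Gapdh did not set it apart, at -0.113, against -0.125 to -0.073 in the other control arrays. The mean of the 10 members was 7.44 on control replicate 2, against 8.01 to 8.36. It was the lowest control array for 8 of the 10 members and for 32.3% of all genes, where control replicate 1 was lowest for 36.1%. The differences of the members from control are therefore given with and without control replicate 2. In its own line, shTR1/shSep15 replicate 2 was the lowest array for 7 of the 10 members and for 35.8% of all genes. Its member mean was 8.10, against 8.31 or more in the other arrays of that line. Of the epithelial markers, Cdh1 was at 2.31 to 2.80 in all 16 arrays, below the array medians of 4.45 to 4.58. Epcam was at 5.44 to 6.59. The mean of 7 epithelial markers was lower in shSep15 cells (4.09 to 4.31) than in control cells (4.96 to 5.34). Krt18 averaged 3.26 in shSep15 cells and 5.94 in control cells, and Krt20 averaged 5.02 in shSep15 cells and 8.31 in control cells. For Epcam, Cdh1, Krt8, Krt19 and Cldn4 the means were much closer. The widest gap among them was in Krt8, at 4.63 in shSep15 cells and 4.89 in control cells. Means of leukocyte markers (3.83 to 4.47) and of endothelial markers (3.89 to 4.27) lay at or below the array medians in every line, and those of fibroblast markers lay between 4.52 and 6.29. The part of these markers in the results was not tested.

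Of the 10 members, Ganab was the only one to pass the test against control, and it did so in a single line, shSep15. The threshold was a limma adjusted p under 0.05, with the adjustment made over all probe sets. In shSep15 against control, 1 of the 10 members passed, against 1.97% of all probe sets. No member passed in shTR1 against control, where 0.18% of all probe sets did, or in shTR1/shSep15 against control, where 0.0244% did. Without adjustment, p was under 0.05 for 5, 3 and 1 members in these 3 comparisons, all of them higher in the knockdown line, against 15.3%, 14.0% and 8.79% of all genes. The member medians were 0.33, 0.30 and 0.16 above control, against -0.02, -0.03 and 0.01 for all genes. Without control replicate 2 the member medians were 0.20, 0.09 and 0.08, against -0.02, -0.03 and 0.01 for all genes. In that fit p was under 0.05 without adjustment for 2, 1 and 1 members, and the share of all genes was not counted. The 3 comparisons share the control arrays. All genes were not matched to the members for signal. Members other than Uggt2 had mean signals of 6.60 (Man1b1) to 11.23 (Calr), above the array medians of 4.45 to 4.58. The upper quartiles of the arrays were 6.45 to 6.73 in shSep15 and 6.51 to 6.76 in shTR1 cells. They were 6.35 to 6.63 in shTR1/shSep15 and 6.395 to 6.67 in control cells. Whether equally bright genes shift alike was not tested.

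**Figure D1:**
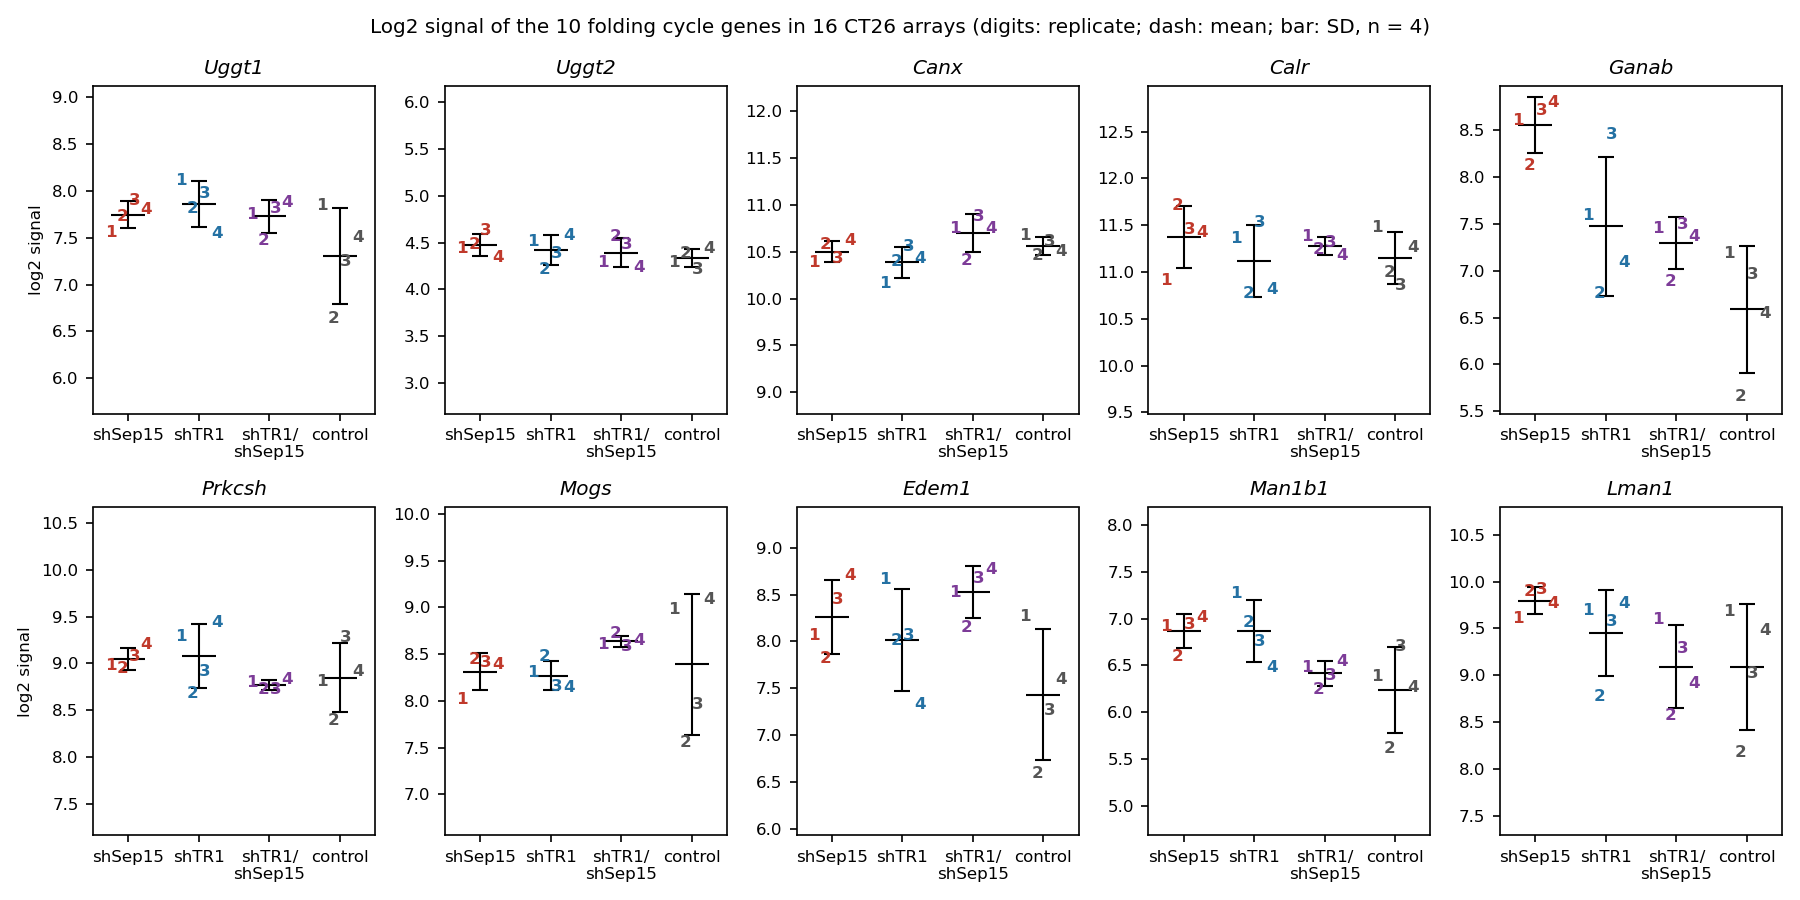
Log2 signal (vertical axis, a span of 3.5 in every panel) of the leading probe set of each of the 10 members in the 4 lines. Digits are the replicates, dashes the means and bars the SD (n = 4). Ganab in shSep15 cells lies above all control arrays, and control replicate 2 is the lowest control array in 8 of the 10 panels.

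Ganab, the catalytic subunit of glucosidase II, was higher in shSep15 cells. Its signals were 8.60, 8.13, 8.71 and 8.79 in the 4 shSep15 arrays, 7.59, 6.76, 8.46 and 7.09 in the shTR1 arrays and 7.45, 6.88, 7.50 and 7.36 in the shTR1/shSep15 arrays, against 7.18, 5.66, 6.96 and 6.55 in the control arrays. Every shSep15 array exceeded every control and every shTR1/shSep15 array. They overlapped with shTR1 through a single array, shTR1 replicate 3. Such separation from control was seen in 4.81% of all genes for shSep15, and in 3.28% for shTR1 and 4.31% for shTR1/shSep15, where no member showed it. The difference between shSep15 and control was 1.97 (SE 0.35, 95% interval 1.22 to 2.73, limma adjusted p = 0.00922), or 3.92-fold. Without control replicate 2 it was 1.66, with a limma adjusted p of 0.0136. The differences of shTR1 (0.89, SE 0.35) and shTR1/shSep15 (0.71, SE 0.35) from control did not pass, with limma adjusted p-values of 0.349 and 0.642. They were 0.58 and 0.40 without control replicate 2. With the shTR1 arrays of replicates 2 and 4 left out, where Txnrd1 was not reduced, the shTR1 difference was 1.44, and it did not pass either (limma adjusted p = 0.327). The other probe set of Ganab had signals between 2.60 and 3.25 in all 16 arrays, well under the array medians, and a difference between shSep15 and control of 0.14 (limma adjusted p = 0.770). The Ganab result therefore rests on a single probe set.

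Prkcsh, the regulatory subunit of the same enzyme, did not pass in any line. Its signals were 8.94 to 9.20 in shSep15 cells, 8.68 to 9.44 in shTR1 cells and 8.72 to 8.82 in shTR1/shSep15 cells, against 8.39 to 9.28 in control cells. The groups overlapped in all 3 comparisons with control. The shSep15 difference from control was 0.20 with a 95% interval of -0.18 to 0.58. The differences of Prkcsh without control replicate 2 were 0.05, 0.08 and -0.23 in shSep15, shTR1 and shTR1/shSep15 cells. For Mogs, glucosidase I, the shSep15 difference was -0.08 (-0.64 to 0.48), and -0.36 without control replicate 2. In the other lines Mogs was at -0.41 and -0.04 relative to control without that array, against -0.12 and 0.24 with it. The control arrays of Mogs had the largest SD of any member (0.75), at 8.97, 7.55, 7.97 and 9.08, whereas the shTR1/shSep15 arrays lay between 8.58 and 8.72.

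Uggt1, the folding sensor that Sep15 binds, had means above control in all 3 knockdown lines without passing the test. Its signals were 7.56, 7.73, 7.90 and 7.80 in shSep15 cells, 8.11, 7.81, 7.98 and 7.54 in shTR1 cells and 7.75, 7.47, 7.82 and 7.88 in shTR1/shSep15 cells, against 7.85, 6.63, 7.24 and 7.50 in control cells. Control replicate 1 reached the level of the knockdown lines and control replicate 2 lay far below, so that every line overlapped with control. The differences from control were 0.44, 0.55 and 0.42 (SE 0.20 each), with limma adjusted p-values of 0.391, 0.313 and 0.626. Without control replicate 2 they were 0.22, 0.33 and 0.20. The next probe set of Uggt1 gave 0.24, 0.28 and -0.05. The homolog Uggt2 was at 4.35 to 4.63 in shSep15 cells, 4.22 to 4.58 in shTR1 cells and 4.24 to 4.57 in shTR1/shSep15 cells, against 4.22 to 4.44 in control cells. These signals are near the median of the arrays, and differences from control were at most 0.14, and at most 0.16 without control replicate 2.

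The means of the 4 lines lay within 0.31 of each other for Canx and within 0.26 for Calr, the lectin chaperones. Canx was at 10.39 to 10.62 in shSep15 cells, 10.16 to 10.56 in shTR1 cells and 10.41 to 10.88 in shTR1/shSep15 cells, against 10.46 to 10.67 in control cells. The 95% intervals of its difference from control were -0.30 to 0.18, -0.41 to 0.07 and -0.10 to 0.38 in these 3 lines. The differences were -0.06, -0.17 and 0.14, and -0.09, -0.20 and 0.10 without control replicate 2. Another probe set of Canx, named after its values were seen, was at 9.52, 9.55, 9.90 and 9.82 in shTR1/shSep15 cells and at 9.36, 9.23, 8.89 and 9.06 in control cells. These groups did not overlap, but the difference of 0.56 did not pass the test (SE 0.18, limma adjusted p = 0.440). Calr was at 10.91 to 11.71 in shSep15 cells, 10.77 to 11.52 in shTR1 cells and 11.17 to 11.38 in shTR1/shSep15 cells, against 10.86 to 11.48 in control cells. Its differences from control were 0.23, -0.03 and 0.13, each smaller than 1 SD of the control arrays (0.28). The values without control replicate 2 were 0.17, -0.08 and 0.08.

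Edem1 and Man1b1, which act on glycoproteins that fail to fold, differed more from control than Canx and Calr in shSep15 and shTR1 cells. Neither passed the test. Edem1 was at 8.06, 7.82, 8.45 and 8.71 in shSep15 cells, 8.66, 8.02, 8.07 and 7.33 in shTR1 cells and 8.52, 8.15, 8.67 and 8.77 in shTR1/shSep15 cells, against 8.27, 6.59, 7.26 and 7.59 in control cells. Control replicate 1 lay within the range of every knockdown line. The shTR1/shSep15 difference from control, 1.10 (SE 0.33, 95% interval 0.40 to 1.80), was the largest of any member in that line, but its limma adjusted p was 0.385. Without control replicate 2 it was 0.82. The shSep15 and shTR1 differences of Edem1 were 0.83 and 0.59, and 0.55 and 0.31 without that array. The other probe set of Edem1 had nearly the same mean signal (8.04, against 8.06 for the leading one). It gave 0.38, 0.20 and 0.11 in shSep15, shTR1 and shTR1/shSep15 against control, so that the sizes depend on the probe set.

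Man1b1, the ER mannosidase, was at 6.92, 6.60, 6.94 and 7.01 in shSep15 cells, 7.27, 6.95, 6.76 and 6.48 in shTR1 cells and 6.48, 6.24, 6.39 and 6.55 in shTR1/shSep15 cells, against 6.38, 5.61, 6.70 and 6.27 in control cells. The means of shSep15 and shTR1 cells exceeded control by 0.63 and 0.62 (SE 0.20 each), with limma adjusted p-values of 0.163 and 0.249. In shTR1/shSep15 cells the difference was 0.18 (limma adjusted p = 0.890). Leaving out control replicate 2 gave 0.42, 0.41 and -0.03, so that the last one changed sign. The shSep15 arrays lay above all shTR1/shSep15 arrays.

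Lman1, the cargo receptor at the exit of the cycle, was at 9.61, 9.90, 9.92 and 9.76 in shSep15 cells, 9.69, 8.77, 9.57 and 9.76 in shTR1 cells and 9.59, 8.57, 9.29 and 8.92 in shTR1/shSep15 cells, against 9.68, 8.17, 9.02 and 9.48 in control cells. The shSep15 arrays were tight and high, and only control replicate 1 reached their range. The shSep15 difference from control was 0.71 (SE 0.31, limma adjusted p = 0.341), and 0.40 without control replicate 2. In shTR1 cells it was 0.36, and 0.06 without that array. The next probe set of Lman1 gave 0.81 (SE 0.25, limma adjusted p = 0.137), and the groups there did not overlap. The shTR1/shSep15 difference was 0.01 at the leading probe set (-0.30 without control replicate 2) and 0.51 at the next, so that the size in that line depends on the probe set.

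**Figure D2:**
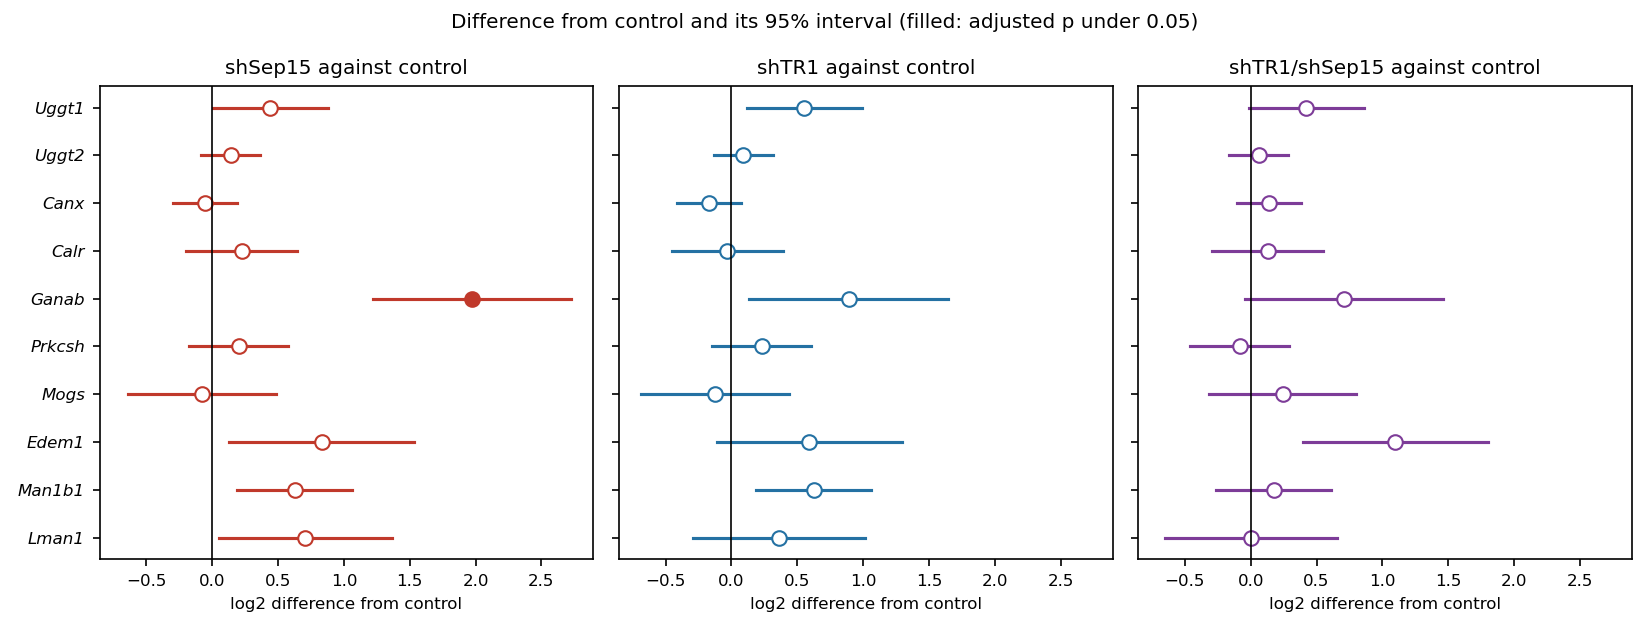
Log2 difference of each member's leading probe set from control (points) with its 95% interval (bars), in shSep15, shTR1 and shTR1/shSep15 cells. The filled point, Ganab in shSep15 cells at 1.97, is the single one past an adjusted p of 0.05.

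Next, the single knockdowns were set against the line that carries both hairpins. No member passed in shSep15 against shTR1/shSep15 (2.66% of all probe sets did), in shTR1 against shTR1/shSep15 (0.0733%) or in shSep15 against shTR1 (0.648%). Without adjustment, p was under 0.05 for 3 members in shSep15 against shTR1/shSep15, for 2 in shTR1 against shTR1/shSep15 and for 1 in shSep15 against shTR1, beside 15.5%, 11.3% and 9.25% of all genes. The shSep15 arrays lay above all shTR1/shSep15 arrays for 4 members and below them for 1, where 8.27% and 9.5% of all genes showed such separation. Ganab came closest to the threshold. It averaged 8.56 ± 0.30 (shSep15) and 7.30 ± 0.28 (shTR1/shSep15; SD, n = 4 each), a difference of 1.26 (SE 0.35, limma adjusted p = 0.0771). It passed in 8 of 27 alternative settings. Limma adjusted p-values ran from 0.00225 (array weights) to 0.233 (without shTR1/shSep15 replicate 2). The fit with the arrays of these lines alone gave a limma adjusted p of 0.00333, and more of all probe sets passed there than with all arrays. For Canx the difference between shTR1 and shTR1/shSep15 cells was -0.31 (95% interval -0.55 to -0.07, limma adjusted p = 0.339).

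The effect of both hairpins was then compared with the sum of the single effects, each taken as a line's difference from control. A hairpin effect cannot be told apart here from other differences between the transfected lines. In this contrast 2.85% of all probe sets passed, and so did 1 member, Ganab, at -2.15 relative to that sum (SE 0.50, limma adjusted p = 0.0325). The single effects on Ganab were 1.97 and 0.89, and the effect of both hairpins together was 0.71. The value of 0.89 includes shTR1 replicates 2 and 4, where Txnrd1 was not reduced. Without these arrays it was 1.44, and Ganab was at -2.70 relative to the sum (limma adjusted p = 0.021). Man1b1 and Lman1 had values of -1.08 and -1.06 in the same direction (SE 0.29 and 0.43), with limma adjusted p-values of 0.0619 and 0.237. In all, 8 of the 10 members were below the sum, with a median of -0.42, against 0.07 for all genes. The exceptions were Canx (0.37) and Mogs (0.45). All genes are not a set matched to the members for signal, in this contrast or in its fit without control replicate 2. The control arrays enter this contrast as well. When control replicate 2 was left out, 8 of the 10 members were again below the sum, with a median of -0.27, against 0.07 for all genes. Ganab was then at -1.84 (limma adjusted p = 0.0271), Lman1 at -0.76 and Man1b1 at -0.87, where Man1b1 passed too (limma adjusted p = 0.0455). The Ganab call was lost without control replicate 4, and in 7 of the 8 fits that left out an shSep15 or shTR1/shSep15 array, with limma adjusted p-values of 0.0514 to 0.0767. The fit that kept it left out shSep15 replicate 2 (0.0285).

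**Figure D3:**
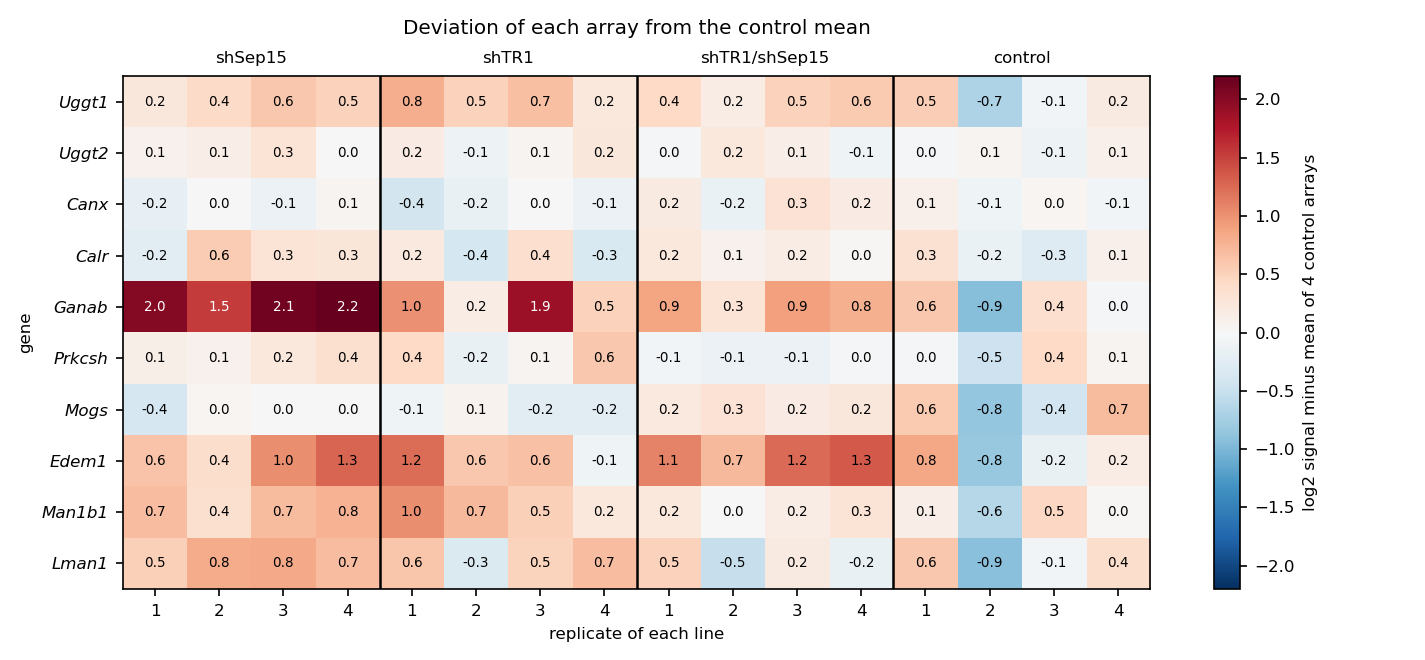
Log2 signal of each member in each array minus the mean of the 4 control arrays of that gene (colour and printed value). The shSep15 arrays of Ganab lie 1.54 to 2.21 above the control mean, and control replicate 2 lies between -0.93 and -0.45 for 7 members, all but Uggt2, Canx and Calr.

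In the order of the lines, shSep15 or shTR1 was highest for 7 of the 10 members and shTR1/shSep15 for Canx, Mogs and Edem1. Control was lowest for 6 members with all arrays, Man1b1 and Lman1 among them. Without control replicate 2, shTR1/shSep15 lay below control for Man1b1 (-0.03) and Lman1 (-0.30). No neighbours in these orders could be told apart at a p of 0.05. The smallest exact two-sided permutation p between neighbours was 0.0571, for Ganab in shSep15 against shTR1, where 4 against 4 arrays can give no less than 0.0286.

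Members varied together to unequal degrees over the 16 arrays, which share the lines and, in control replicate 2, an array that is low for most members. Pearson's r with Uggt1 was 0.85 for Edem1, 0.74 for Man1b1, 0.65 for Ganab and 0.64 for Lman1, but 0.07 for Canx and for Uggt2. Between Ganab and its partner Prkcsh it was 0.45, and between Canx and Calr 0.27. Among 8053 genes with a mean signal of at least 6, the 5 most like Uggt1 were Fto (0.94), Htatsf1 (0.92), Dock1 (0.90), Rpn1 (0.90) and Sec61a1 (0.90). Rpn1 is a subunit of the oligosaccharyltransferase and Sec61a1 the pore through which new proteins enter the ER.

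The neighbouring steps of the pathway were described by 5 lists with 71 measured genes. All genes, given beside them, were not matched to the lists for signal. In shSep15 against control, 7 of the 71 passed as higher and 2 as lower, where 1.86% of all 18193 genes passed as higher and 0.863% as lower. Of these 2, Selenof is the target of the Sep15 hairpin, so that its call was fixed by the design, and the other is Man1a. Without control replicate 2 the total was again 9, with 8 genes shared: Dad1 no longer passed, and Sec23b, a COPII coat subunit, did. In shTR1 no list gene passed, with 14 of the 71 under an unadjusted p of 0.05, where 14.0% of all genes were. In shTR1/shSep15 only Selenof passed, again as the target of the hairpin, where 7 of all 18193 genes did. Among subunits of the oligosaccharyltransferase, which attaches the glycan, 11 of 12 were above control in shSep15 cells with a median of 0.47, against -0.02 for all genes, and of 0.31 without control replicate 2. Ostc (1.68, limma adjusted p = 0.00205) and Dad1 (0.51, limma adjusted p = 0.0376) passed. Of 16 genes that build the glycan, Alg5, which makes the dolichol-linked glucose donor, rose by 1.57 (limma adjusted p = 0.00311) and the list median was 0.24 (0.10 without control replicate 2).

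At the other end, 14 of 15 genes of cargo receptors and ER exit were above control, with a median of 0.51 (0.40 without control replicate 2). Sec24d (1.99, limma adjusted p = 0.000914) and Sec24b (1.24, limma adjusted p = 0.0015), which select cargo in COPII vesicles, passed, and so did Lman2l, a relative of Lman1 (1.60, limma adjusted p = 0.0190). Of 21 genes of mannose trimming and degradation (median 0.07), the Golgi mannosidases Man1a2 and Man1a passed in opposite directions. Man1a2 rose by 0.98 (limma adjusted p = 0.0384). Man1a was at 3.30, 3.38, 2.97 and 3.30 in shSep15 cells and at 4.79, 6.29, 5.08 and 4.10 in control cells, a difference of -1.83 (limma adjusted p = 0.0218), and -1.42 without control replicate 2. Its shSep15 signals lie under the array medians of 4.45 to 4.58, so that the size of this difference is uncertain. The partners of the lectins (7 genes, Pdia3, Ppib and Hspa5 among them) had a median of -0.04, and none but Selenof passed.

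Of the 7 list genes that were higher in shSep15 cells, 5 lie on chromosome 3: Ostc, Alg5, Man1a2, Sec24b and Sec24d. The lists hold 8 genes of that chromosome, Selenof included, and 2 of the 63 genes elsewhere were higher. Over the whole array, 12.4% of the 913 genes of chromosome 3 were higher in shSep15 cells, against 1.3% of the 17280 genes on other chromosomes or without one. None of the 10 members lies on chromosome 3, and Ganab lies on chromosome 19. Sec24d was at 9.86, 10.42, 10.04 and 10.06 in shSep15 cells, 8.42, 8.42, 8.86 and 9.03 in shTR1 cells and 8.49, 8.33, 8.55 and 8.85 in shTR1/shSep15 cells, against 8.73, 7.29, 8.10 and 8.33 in control cells. The shSep15 arrays stood above all other arrays, whereas the remaining 3 lines overlapped.

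**Figure D4:**
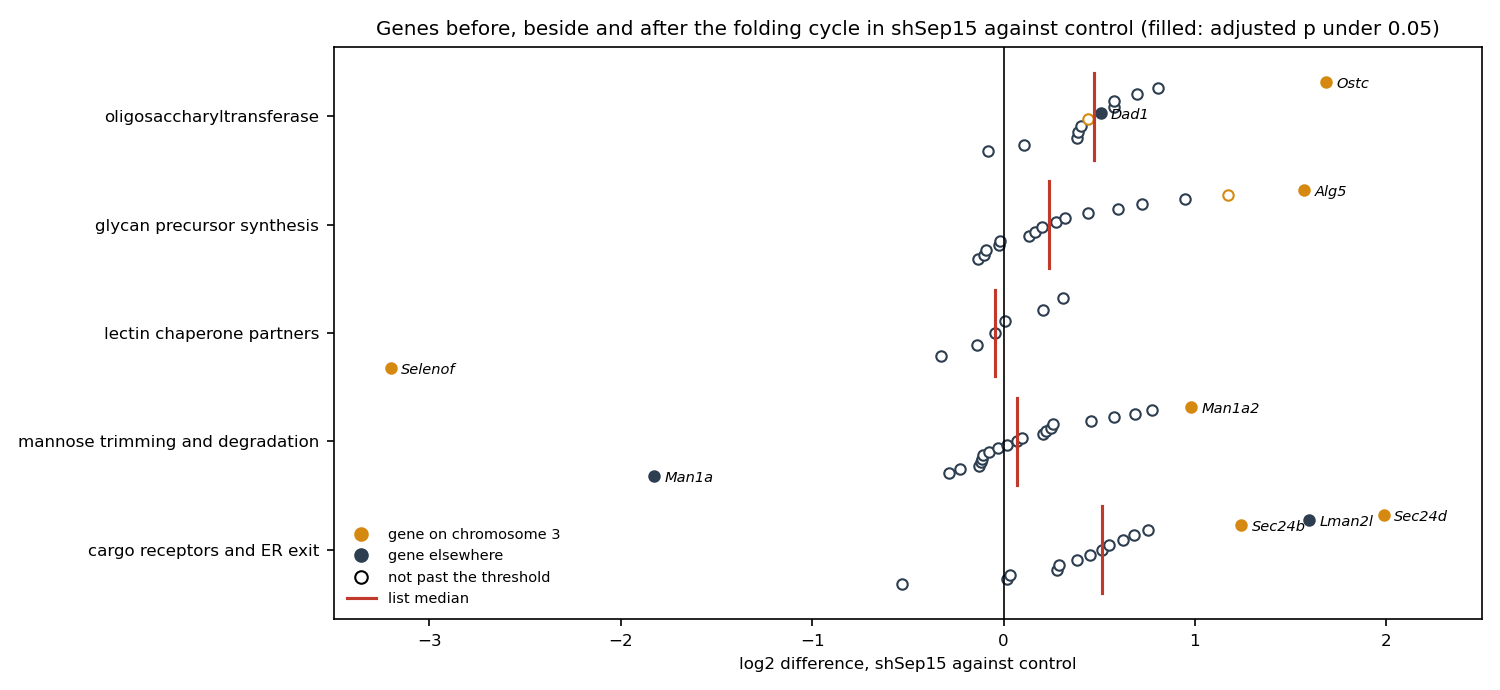
Log2 difference between shSep15 and control (horizontal axis) for the 71 measured genes of 5 lists around the folding cycle. Filled points passed an adjusted p of 0.05, orange points lie on chromosome 3 and red lines are list medians; 5 of the 7 genes that passed as higher are orange.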

How the data were processed

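Total mRNA of 4 CT26 lines was hybridized to Affymetrix mouse genome arrays, 4 per line. Per the labels and the study's methods, the authors converted probe signals with the Robust Multi-Array Analysis algorithm (RMA, no version given) and deposited normalized log2 signals, which were used unchanged. Arrays have no read depth, and their number limits the precision.

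Of 45101 probe sets, 64 manufacturer's controls were left out. GEO's platform annotation gave 34945 probe sets with 1 symbol, 932 with several and 9160 with none, and 34741 symbols were updated through the gene number in RefSeq. Groups followed the labels. The lines were compared in limma 3.58.1 under R 4.3.3, by a linear model per probe set that holds 1 mean per line, with empirical Bayes moderation (degrees of freedom: 12 residual, 2.58 prior). This is the moderated form of the study's analysis of variance. p-values were adjusted by Benjamini-Hochberg over all 45037 probe sets, for 7 comparisons, and 95% intervals come from the same fit. The fit was tested on simulated data with known changes. Exact permutation tests were two-sided.

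The members and lists were chosen with earlier results of these data known. Named were all 10 members, both targeted genes, list genes past the threshold against control (up to 4 per list) and the 5 genes most correlated with Uggt1; Sec61a1 and Rpn1 came from that last rule. Alternatives comprised an intensity trend, no moderation, brighter probe sets alone, only the lines compared, median centring, quantile normalization, a replicate block, leaving out each array or shTR1 replicates 2 and 4, array weights, means over probe sets and a 3' minus 5' covariate. List medians without control replicate 2 were added after seeing the data. Lman1 has no entry in the promoter table used. Plots were made in Python 3.11.15 (matplotlib 3.10.9).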

Additional observations from a re-analysis of the deposited data

Results flagged for a closer look

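For Ganab, lines with and without the Sep15 hairpin differed unequally with the TR1 hairpin present or absent. The contrast was -2.15 on the log2 scale (limma adjusted p = 0.0325, the test of the difference itself). A hairpin effect cannot be told apart here from other differences between the transfected lines. Mogs in shSep15 replicate 1 was at 8.02, away from the other shSep15 arrays at 8.39 to 8.44. It is the 1 outlying array among 40 groups of 4 arrays, where chance flags about 1 in 20 groups.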

How the results depend on the processing

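Ganab in shSep15 against control passed in all 27 settings, with limma adjusted p-values of 0.00155 to 0.0395 and differences of 1.05 (mean of its probe sets) to 2.17. It passed in 17 of 26 settings in the comparison of both hairpins with the sum of the single effects. The signal over background limits Uggt2, the other probe set of Ganab and Man1a in shSep15 cells, which lie near or under the array medians. Causes of the following changes were not tested. In the order shSep15, shTR1 and shTR1/shSep15 against control, the members past the threshold were 1, 0 and 0, and at an unadjusted p without moderation 3, 3 and 1. List genes were 9, 0 and 1, and at that unadjusted p 25, 12 and 11. In shSep15 against control, array weights gave 2 members and 15 list genes, no moderation 5 list genes and the compared lines alone 4. In shTR1 against control, array weights and means over probe sets each gave 1 list gene. In shSep15 against shTR1/shSep15 (0 members, 5 list genes), 1 member, Ganab, passed at the unadjusted p, among probe sets with a mean of at least 6, without shTR1 replicates 2 and 4 and with means over probe sets, 2 with the compared lines alone and 3 with array weights. List genes there were 18 at the unadjusted p, 15 with the compared lines alone and 16 with array weights. In shTR1 against shTR1/shSep15 (0 and 1), the unadjusted p gave 1 member and 4 list genes and array weights 3 list genes. In shSep15 against shTR1 (0 and 3), the unadjusted p gave 1 member and 15 list genes, and array weights 1 and 8. For both hairpins against the sum (1 and 7), no moderation gave 0 members, the unadjusted p 4 and 21 list genes, array weights 2 and 16, and 2 members passed among probe sets with a mean of at least 6 and with means over probe sets.

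Over all probe sets, 885 passed in shSep15 against control (345 with the compared lines alone, 2616 with array weights), 81 in shTR1 (4 and 222) and 11 in shTR1/shSep15 (24 and 68). In shSep15 against shTR1/shSep15 it was 1196 (3753 and 5525), in shTR1 against shTR1/shSep15 33 (1084 with array weights), in shSep15 against shTR1 292 (164 and 933), and against the sum 1282 (4462 with array weights, 519 without shTR1 replicates 2 and 4). At the unadjusted p without moderation, these last comparisons gave 5665, 4335, 3424 and 6923 in the same order. Leaving out 1 array gave 437 to 1176, 25 to 211, 8 to 24, 613 to 2239, 5 to 250, 129 to 563 and 656 to 2340 in all 7 comparisons.

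With single arrays left out, the members past the threshold were 0 to 1 in shSep15 against shTR1/shSep15 (1 without control replicate 2 or shTR1 replicate 3) and 0 to 2 against the sum (2 without control replicate 2, control replicate 3, shSep15 replicate 2 or shTR1 replicate 4). List genes were 5 to 10 in shSep15 against control (5 without shSep15 replicate 1, 3 or 4), 0 to 1 in shTR1 against control (1 without control replicate 1 or shTR1 replicate 2), 3 to 8 in shSep15 against shTR1/shSep15 (3 without shSep15 replicate 3 or shTR1/shSep15 replicate 2, 8 without control replicate 2) and 1 to 6 in shSep15 against shTR1 (1 without shSep15 replicate 4, 6 without control replicate 2). The differences that changed sign were small and not past the threshold. Leaving out single arrays, they ran in shSep15 against control from -0.36 to 0.15 for Mogs and from -0.28 to 0.10 for Txnrd1, in shTR1 against control from -0.17 to 0.0861 for Calr and from -0.41 to 0.11 for Mogs, in shTR1/shSep15 against control from -0.23 to 0.0620 for Prkcsh, from -0.0390 to 0.47 for Mogs, from -0.0341 to 0.33 for Man1b1 and from -0.30 to 0.20 for Lman1, in shTR1 against shTR1/shSep15 from -0.15 to 0.42 for Ganab, and in shSep15 against shTR1 from -0.13 to 0.14 for Man1b1. Median centring gave 0.0015 for Txnrd1 in shSep15 against control, 0.0255 for Calr in shTR1 against control and -0.0087 for Man1b1 in shSep15 against shTR1. Without shTR1 replicates 2 and 4, Calr was at 0.29 in shTR1 against control and Man1b1 at -0.15 in shSep15 against shTR1. Means over probe sets gave -0.0465 and -0.0376 for Uggt2 in shTR1 and shTR1/shSep15 against control. For Lman1 in shTR1/shSep15 against control, quantile normalization, array weights and the 3' minus 5' covariate gave -0.0414, -0.0142 and -0.0436, and the covariate gave -0.0217 for Man1b1 in shSep15 against shTR1. Selenof in shTR1 against control (0.51) passed at the unadjusted p. Txnrd1 was at -2.10 in shTR1 against control without shTR1 replicates 2 and 4, against -0.96 with all arrays. Passing the threshold there tests nothing, since those arrays were left out for their high Txnrd1 signals. In shTR1/shSep15 against control (-2.36), Txnrd1 passed at the unadjusted p, with the compared lines alone and without shTR1 replicates 2 and 4. Fits that left out a single array gave -2.53 to -2.21 there, past the threshold without shTR1 replicate 2.

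The replicate numbers did not pair the arrays: 10 of 48 pairings of an array with another line gave the highest correlation to its own number. With the replicate number as a block, Ganab in shSep15 against control kept its difference of 1.97 (limma adjusted p = 0.00155), and 1 member, Ganab, passed in shSep15 against shTR1/shSep15. The count of all probe sets was 184 in shSep15 against shTR1 and 15 in shTR1 against shTR1/shSep15 under this block.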
